A study of Mus musculus with 2 samples.

Results

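The leukocyte microRNA genes Mir142, Mir223, Mir150, Mir155, Mir146 (which encodes miR-146a) and Mir146b were followed in the gastrocnemius, the large calf muscle. They were chosen by name, as the rows whose identifiers carry these symbols in the GENCODE M21 annotation, and all 6 were found among 2202 microRNA genes in the tables. The animals were male B6CASTF1/J mice aged 36 days, an F1 cross of the C57BL/6J and CAST strains, with no treatment named in the labels. Both microRNA-seq libraries belong to 1 group. The labels describe replicates 1 and 2 as biological replicates from different males but give both the same donor identifier, so that they are separate animals rests on the descriptions. There is no second condition, so the comparisons are among the members, with other microRNAs of the same muscle, and between these libraries.

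MicroRNAs are short RNAs that are cut from a hairpin precursor and lower the output of messenger RNAs that pair with their seed, the bases next to their 5′ end. Leukocytes carry a set of them that differs between lineages. miR-142 is found throughout the blood lineages, miR-223 is typical of neutrophils and other myeloid cells and also of platelets, and miR-150 is typical of mature B and T cells. miR-155 is induced when lymphocytes and macrophages are activated, and miR-146a is induced by NF-κB and dampens Toll-like receptor signalling through Traf6 and Irak1. miR-146b is the paralogue of miR-146a. Skeletal muscle holds tissue macrophages and other leukocytes, as well as blood in its vessels.

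The mature sequences are shown to let the members be told apart by their seeds, bases 2 to 8 from the 5′ end, which are in capitals. Sequences and positions are from RefSeq on GRCm38.p6, the assembly also called mm10.
mmu-miR-142a-5p: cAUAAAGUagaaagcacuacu
mmu-miR-142a-3p: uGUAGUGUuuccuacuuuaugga
mmu-miR-223-3p: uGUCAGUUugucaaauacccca
mmu-miR-155-5p: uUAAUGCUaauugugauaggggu
mmu-miR-146a-5p: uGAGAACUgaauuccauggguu
mmu-miR-146b-5p: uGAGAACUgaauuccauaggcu

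Of the arms shown, miR-146a-5p and miR-146b-5p have the same seed, and among 1738 mature entries of the RefSeq table no other microRNA has it. The seeds of the other arms shown were found in no other mature entry. miR-146a-5p and miR-146b-5p are identical at 20 of 22 positions and share their first 17 bases. Counted from 1 at the 5′ end, miR-146b-5p differs from miR-146a-5p by G18A and U21C. Hairpins of 5 members were matched in the RefSeq table, and for Mir150 the table gave the 3p arm.

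The precursors below show how each member is laid out, with the annotated mature arms in capitals. The deposited counts are per gene and do not separate the arms.
Mir142: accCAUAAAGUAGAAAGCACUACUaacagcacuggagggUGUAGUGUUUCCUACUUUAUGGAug
Mir155: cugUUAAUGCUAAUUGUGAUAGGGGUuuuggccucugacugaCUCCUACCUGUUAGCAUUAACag
Mir146: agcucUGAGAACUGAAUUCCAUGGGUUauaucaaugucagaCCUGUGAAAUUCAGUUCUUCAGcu
Mir146b: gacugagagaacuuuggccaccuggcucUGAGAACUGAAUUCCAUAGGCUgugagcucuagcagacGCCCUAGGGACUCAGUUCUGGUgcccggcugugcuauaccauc
Mir223: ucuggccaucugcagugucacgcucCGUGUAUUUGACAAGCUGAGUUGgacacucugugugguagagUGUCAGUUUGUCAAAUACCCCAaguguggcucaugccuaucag

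The members lie on different chromosomes, apart from Mir142 and Mir146, which share chromosome 11. Mir142 (ENSMUSG00000105196.1) is at chr11:87756864-87756927 on the plus strand, inside the noncoding gene Mir142hg but outside its exons. Mir146 (ENSMUSG00000065601.1) is at chr11:43374397-43374461 on the minus strand, with no other annotated gene over it. Mir155 (ENSMUSG00000065397.1) is at chr16:84714140-84714204 on the plus strand, in an exon of its host transcript Mir155hg. Mir223 (ENSMUSG00000076066.1) is at chrX:96242817-96242926 on the plus strand, in an exon of the noncoding RNA F630028O10Rik. Mir150 (ENSMUSG00000065495.1) is at chr7:45121757-45121821 on the plus strand, with no other annotated gene over it. Mir146b (ENSMUSG00000070127.2) is at chr19:46342762-46342870 on the plus strand, in an intron of the protein-coding gene Mfsd13a. None of the 6 has another microRNA gene within 10000 bases on its own strand, so none belongs to a cluster by that distance.

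Reads assigned to the strand of a microRNA gene numbered 4134880 in replicate 1 and 3219740 in replicate 2, and levels are given as CPM, counts per 1000000 of these reads. Means are followed by the SD over 2 libraries. Reads aligned to several loci, which the layout of the tables puts in no gene, were 70.4% of replicate 1 and 73.3% of replicate 2. Mir206, a defining skeletal muscle microRNA, stood at 27262 ± 2019 CPM, and the 9 muscle markers all had at least 10 counts in each library. Intervals are exact Clopper-Pearson 95% intervals and cover counting error only. With 2 libraries the smallest two-sided p of an exact sign-flip test is 0.5, so no test was made and differences are set against the SD.

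Of the 6 members, 5 were readily counted, and they took a small share of the reads counted in microRNA genes. Together the 6 had 9621 counts in replicate 1 and 7807 in replicate 2. That is 0.233% (0.228% to 0.237%) of counted reads in replicate 1 and 0.242% (0.237% to 0.248%) in replicate 2, or 0.238% ± 0.00693. Over all reads, with those unmapped or aligned to several loci included, the mean share was 0.0477%. Scaled to counted reads, the summed level differed little between these libraries, and the intervals of the libraries overlap narrowly, near 0.237%. This closeness depends on the scaling. Under the TMM scaling explained below, the median log2 ratio of replicate 1 over replicate 2 for 5 members was −0.32. At least 10 counts in each library were reached by 5 of the 6 members, against 13.4% of all microRNA genes. The members were picked as known microRNAs, so this larger share is no result about them. In whole tissue, more leukocytes and more microRNA per leukocyte cannot be told apart, nor can cells lodged in the muscle and blood in its vessels. The counts also do not show which cells made these reads, and a source other than leukocytes was not tested.

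**Figure D1:**
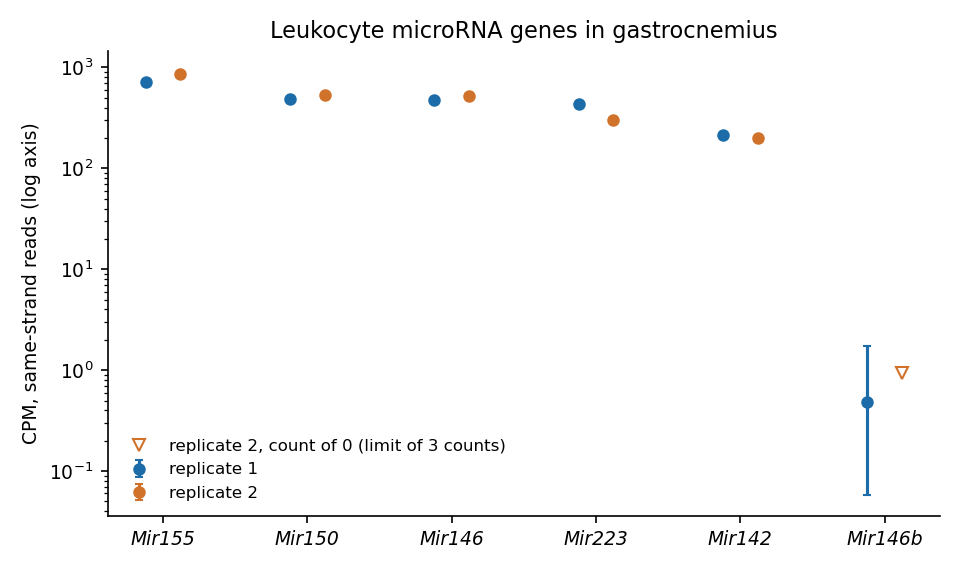
Level of each member in CPM on a log axis, with replicate 1 left of replicate 2. Bars are exact 95% counting intervals, and the open triangle is the limit that a count of 0 allows. Mir155 is highest in each library and Mir146b lies below 1 CPM.

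Mir155, the microRNA of activated lymphocytes and macrophages, was the most abundant member in each library. It had 2941 counts (711 CPM, interval 686 to 737) in replicate 1 and 2806 counts (871 CPM, 839.6 to 904) in replicate 2, a mean of 791 ± 113 CPM. Its rank among all microRNA genes was 74 in replicate 1 and 66 in replicate 2, and 96.8% of genes had a lower mean level. That share includes genes without counts: 1562 of 2201 gene symbols were at 0 in each library.

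Mir150, typical of mature lymphocytes, had 2026 counts (490.0 CPM, interval 469 to 512) in replicate 1 and 1706 counts (529.9 CPM, 505 to 556) in replicate 2. Mir146, the NF-κB-induced gene, had 1973 counts (477 CPM, interval 456 to 499) in replicate 1 and 1685 counts (523 CPM, 499 to 549) in replicate 2. Their means, 509.9 ± 28.2 CPM for Mir150 and 500.2 ± 32.6 CPM for Mir146, differed by less than either SD, and their intervals overlap in each library. Mir150 and Mir146 therefore have no order at this depth.

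Mir223, the myeloid microRNA, had 1803 counts (436 CPM, interval 416 to 457) in replicate 1 and 967 counts (300.3 CPM, 282 to 319.9) in replicate 2. Its mean was 368 ± 96.0 CPM, and its coefficient of variation of 26.1% was the largest of the 5 members with at least 10 counts in each library. The corresponding values were 14.3% for Mir155, 6.53% for Mir146, 5.53% for Mir150 and 4.18% for Mir142, beside a median of 11.8% over the 261 genes that averaged 10 CPM or more. This order depends on scaling to counted reads. Under the TMM scaling explained below, the log2 ratio between the libraries was furthest from 0 for Mir155, at −0.50. It was −0.34 for Mir146, 0.33 for Mir223, −0.32 for Mir150 and −0.12 for Mir142. The median absolute ratio over the 261 genes was 0.18.

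Mir142, which is carried throughout the blood lineages, was the lowest of these 5. It had 876 counts (212 CPM, interval 198 to 226) in replicate 1 and 643 counts (199.7 CPM, 185 to 216) in replicate 2, a mean of 206 ± 8.59 CPM and rank 128 by mean. The libraries overlap in their intervals for this gene.

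Mir146b was barely counted, with 2 counts (0.484 CPM) in replicate 1 and 0 in replicate 2, where the limit set by 3 counts is 0.932 CPM. In replicate 2, Mir146 was at least 562-fold higher than Mir146b, with a floor of 3 counts in that library. Over the summed counts of each gene, 3658 for Mir146 and 2 for Mir146b, the ratio was 1829 (interval 506 to 15108). Both counts of Mir146b came from replicate 1, where the ratio was 986.5 (273 to 8152). The other 4 members also exceeded Mir146b, with summed-count ratios from 759.5 for Mir142 to 2873.5 for Mir155, and ratios in replicate 1 alone of 438 for Mir142 and 1470.5 for Mir155. Reads that align equally well to Mir146 and Mir146b would be in neither count, and their hairpins share a run of 21 bases, so the low count covers reads assigned to Mir146b alone.

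**Figure D2:**
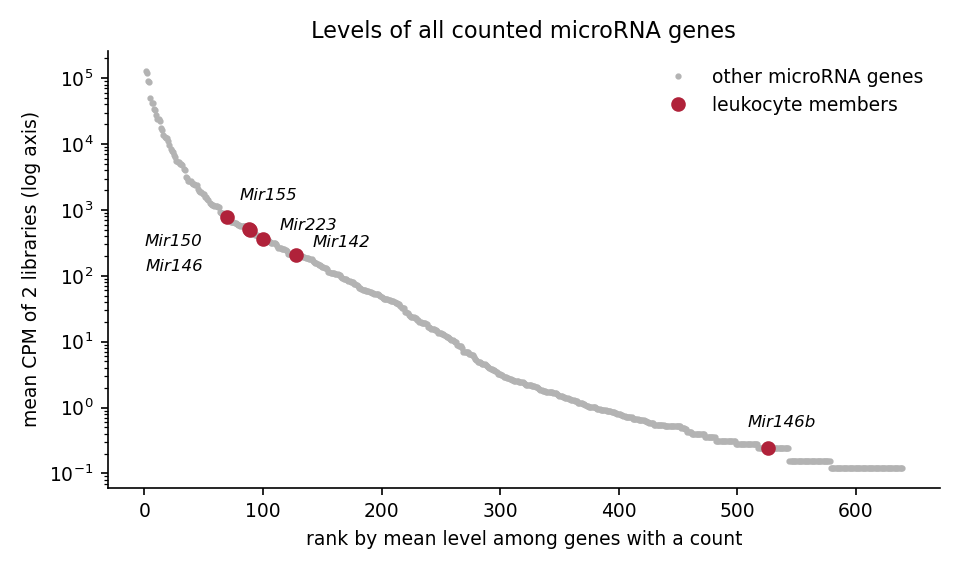
Mean CPM of every microRNA gene with a count, on a log axis, against its rank, with the members as large points. The other 5 members stand between rank 70 and rank 128, and Mir146b stands in the long tail below 1 CPM.

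Sharing of sequence with other genes was checked for each member, since reads aligned to several loci are not counted. The longest run that Mir142, Mir223, Mir150 or Mir155 shares with any other of the 2202 annotated hairpins was 12 bases for Mir223 and 13 bases for the other 3 genes, leaving aside the opposite-strand hairpin at Mir142. The annotated mature arms of Mir142, Mir146 and Mir146b occur whole in no other GENCODE M21 transcript. Those of Mir155 and Mir223 occur in 1 other gene each, their own host transcripts Mir155hg and F630028O10Rik. Matches elsewhere in the genome, and CAST alleles that differ from mm10, were not analysed here.

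Strand mattered for 1 member. Mir142b is annotated on the minus strand across Mir142, at chr11:87756841-87756955, and in the column that ignores strand Mir142 was listed at 0 in each library. All of its 876 and 643 counts appeared on its own strand, and the same numbers appeared as opposite-strand counts of Mir142b. Mir142b itself had 0 same-strand counts in each library, for a limit of 0.726 CPM in replicate 1 and of 0.932 CPM in replicate 2. For the other members, opposite-strand counts were 0, except for 1 read at Mir150 in replicate 1.

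Ratios between members within a library need no scaling, and they give the order of the read counts. Capture in a library can differ between microRNAs, so the order of RNA amounts can be another. Mir155 exceeded Mir150 with a log2 ratio of 0.63 ± 0.13, which is 1.55-fold, and both libraries had this direction, at 0.54 in replicate 1 and 0.72 in replicate 2. Mir150 over Mir146 was 0.03 ± 0.01, the near tie described above. Mir146 over Mir223 was 0.47 ± 0.47, with 0.13 in replicate 1 and 0.80 in replicate 2, so this step is not larger than the spread between libraries. Mir223 over Mir142 was 0.81 ± 0.32, or 1.76-fold. Mir155 exceeded Mir142, the ends of this range, 3.83-fold (log2 ratio 1.94 ± 0.27). All 10 pairs of these 5 genes had the same sign in both libraries. That count includes the near tie of Mir150 and Mir146 and the step from Mir146 to Mir223, so the sign alone sets no order. The share of same-sign pairs over all genes was not computed.

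The make-up of the member reads differed between the libraries mainly in Mir223 and Mir155. Mir223 made up 18.7% (interval 18.0% to 19.5%) of the reads of all 6 members in replicate 1 and 12.4% (11.7% to 13.1%) in replicate 2. Mir155 made up 30.6% (29.6% to 31.5%) in replicate 1 and 35.9% (34.9% to 37.0%) in replicate 2. The intervals of the libraries do not overlap for either gene.

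Mir150 made up 21.1% in replicate 1 and 21.9% in replicate 2, and Mir146 made up 20.5% and 21.6%. Mir142 made up 9.11% in replicate 1 and 8.24% in replicate 2. For these 3 genes the intervals of the libraries overlap. The lymphoid and myeloid markers can be set against each other in the same way. Mir150 was counted 1.12 times per read of Mir223 in replicate 1 and 1.76 times in replicate 2, a ratio of these ratios of 0.637 (exact conditional 95% interval 0.575 to 0.706). The same value was 0.872 (0.771 to 0.985) for Mir150 over Mir142 and 0.859 (0.760 to 0.972) for Mir146 over Mir142. Overlap of the separate share intervals thus did not mean equal make-up. For Mir150 over Mir146 it was 1.01 (0.925 to 1.11), the only one of the 10 pairs whose interval included 1. These intervals cover counting error in these libraries and say nothing of the spread between animals.

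**Figure D3:**
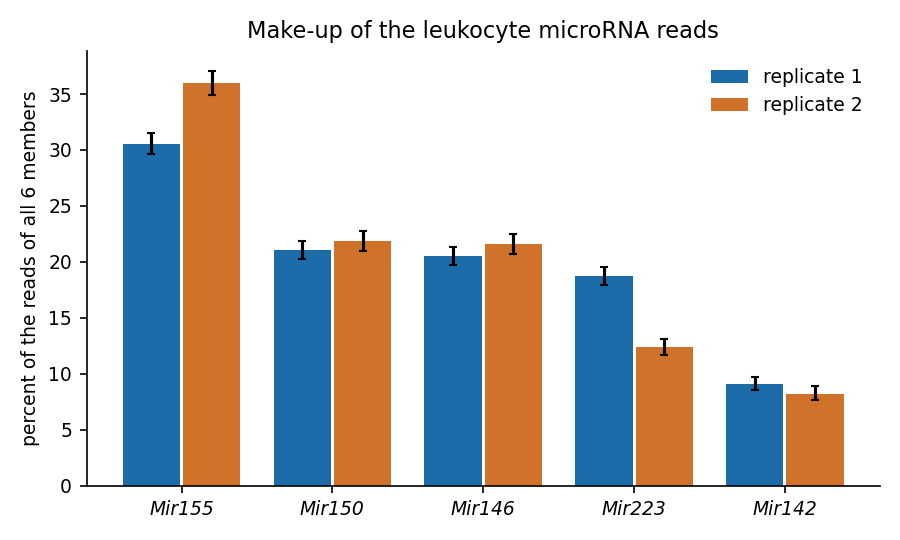
Share of each member in the reads of all 6 members, in percent, with replicate 1 left of replicate 2 and exact 95% counting intervals. Mir223 is the larger share in replicate 1, Mir155 in replicate 2, and the bars of Mir150, Mir146 and Mir142 are close; Mir146b, with 2 and 0 counts, is not drawn.

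Set between the libraries, 1 member was higher and 4 were lower in replicate 1 than in replicate 2. These ratios are log2 ratios of CPM + 1, replicate 1 over replicate 2, scaled by TMM, a trimmed mean over genes. Each rests on 1 library per side and has no replicate check. Mir223 was higher in replicate 1, with 0.33 (counting interval 0.22 to 0.44), and it stayed above 0 under all scalings tried. Values above 0 were found for 51.3% of the 261 genes compared, and 16.9% had a ratio at or above it.

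Mir155 was lower in replicate 1, at −0.50 (−0.58 to −0.43), and stayed below 0 under all scalings tried, and 3.45% of the 261 genes had a ratio at or below it. Mir146 had −0.34 (−0.44 to −0.25) and Mir150 had −0.32 (−0.41 to −0.23). With all reads as the library size both were near 0, at −0.0070 for Mir146 and 0.013 for Mir150. Mir142 had −0.12 (−0.27 to 0.026), an interval that includes 0, and 0.085 under scaling to the total count.

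The direction of the members thus depends partly on scaling. Lower values in replicate 1 were found for 4 of 5 members and for 48.7% of the 261 genes under TMM, and for 3 of 5 members and 20.3% of genes under total-count scaling. The median over all 261 genes was 0.01 under TMM and 0.21 under total-count scaling, and the median over the 5 members was −0.32 and −0.11. No member passed 2-fold in either direction, against 4.98% of genes.

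**Figure D4:**
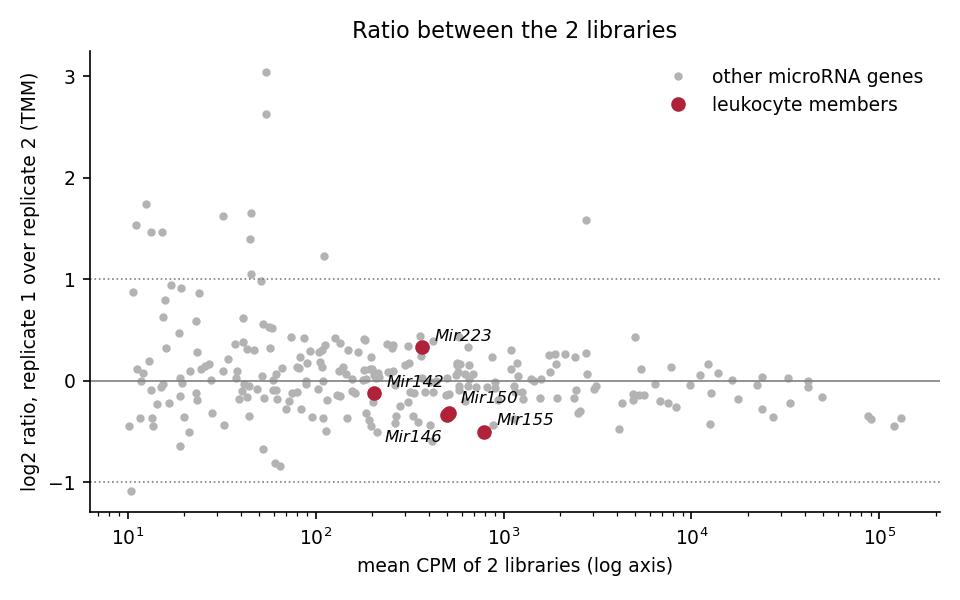
Log2 ratio of replicate 1 over replicate 2 (TMM) against mean CPM on a log axis for 261 genes, with the 5 members that have at least 10 CPM as large points and dotted lines at 2-fold. Mir223 lies above 0 and the other 4 members below it, all within the dotted lines.

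Markers of other cells moved between these libraries as well. Mir338, of the nerve list, had 17718 counts in replicate 1 and 3980 in replicate 2, and the liver microRNA Mir122 had 85 and 15. Both were higher in replicate 1, as Mir223 was. The summed level of the nerve list was 4297 CPM in replicate 1 against 1244 CPM in replicate 2, nearly all of it Mir338. Of its other genes, Mir219a-1 had 13 counts in replicate 1 and 11 in replicate 2, and Mir219a-2 had 38 and 15. Both averaged below 10 CPM, and the ratio of Mir219a-1 went the other way under TMM, at −0.25. Mir124a-1, Mir124a-2 and Mir124a-3 were at 0 in each library. The Mir219a and Mir124a loci have a copy number in their symbol and can lose reads that align to each copy. Other lists were lower in replicate 1 under TMM, as 4 of the 5 members were. Skeletal muscle markers were lower for 7 of the 8 genes with at least 10 CPM, with a median log2 ratio of −0.37. Mir126a of endothelium had −0.37, and Mir143 and Mir145a of smooth muscle had −0.34 and −0.32, close to Mir150 and Mir146. Under total-count scaling the medians of these lists were −0.17, −0.17 and −0.12. The red cell list had a median of −0.12 under TMM and 0.087 under total-count scaling. For the epithelium list, with 1 gene of at least 10 CPM, the values were −0.13 and 0.082. The part of these differences in the ratios of the members was not tested.

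Red cell microRNAs, which blood carries into a tissue sample, were set beside the members. Mir451a, the microRNA of red cells, had 1286 counts in replicate 1, 999 in replicate 2 and a mean of 310.6 ± 0.523 CPM, and Mir144, its neighbour, had 388 and 268 counts. The red cell list held 405 CPM in replicate 1 and 394 CPM in replicate 2. The 6 leukocyte members reached 2327 CPM in replicate 1 and 2425 CPM in replicate 2, above the 2 red cell genes in each library. These are sums over lists of unequal length and do not compare amounts of leukocytes and red cells.

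Against Mir451a the members separated into higher and lower ones. Mir155 exceeded it 2.53-fold (log2 ratio 1.34 ± 0.21), Mir150 1.64-fold (0.71 ± 0.08) and Mir146 1.61-fold (0.69 ± 0.10), in both libraries. Mir142 was below Mir451a in both, with a log2 ratio of −0.59 ± 0.06. Mir223 was above it in replicate 1, at 0.49, and just below it in replicate 2, at −0.05, so no order of these genes can be given. These values compare read counts of different microRNAs, whose capture in a library can differ, and are not numbers of cells.

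**Figure D5:**
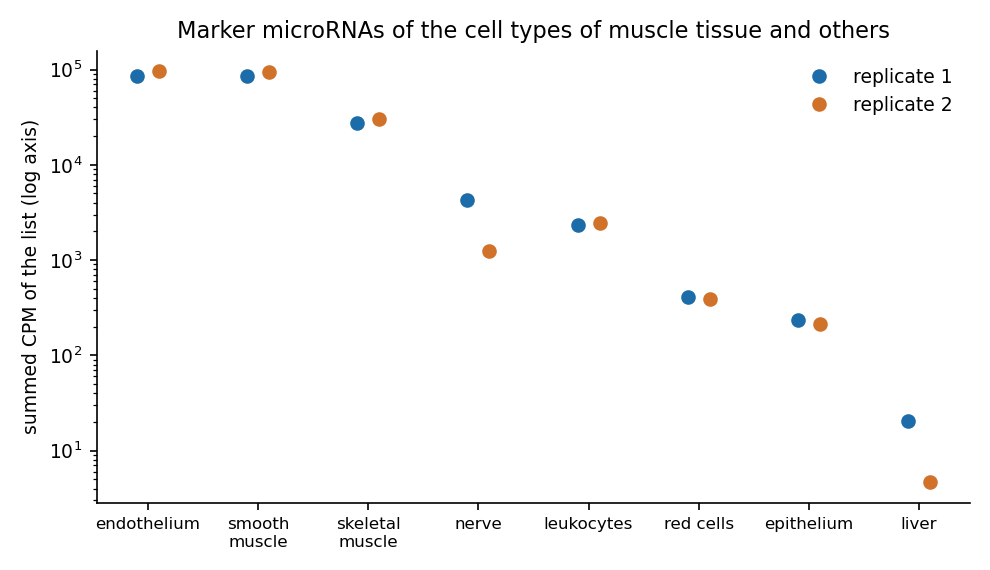
Summed CPM of marker microRNA lists on a log axis, with replicate 1 left of replicate 2. The 6 leukocyte members sit at 2327 and 2425 CPM, above the 2 red cell genes at 405 and 394 CPM. They lie below skeletal muscle, smooth muscle and endothelium. The nerve and liver lists differ most between the libraries, the nerve list through Mir338.

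The members were far below the most abundant markers of the tissue's other cells, but not below all of them. Mir126a, carried by endothelium, exceeded Mir155 115-fold, and Mir206 exceeded it 34.6-fold (log2 ratio of Mir155 over Mir206 −5.11 ± 0.10). Of the 9 skeletal muscle markers, Mir206 and Mir486 had a higher mean level than Mir155 and the other 7 a lower one, and 5 lay below Mir142. Several of these 7 are loci of Mir1a and Mir133a, which can lose reads that align to each copy.

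Other microRNAs known from leukocytes, or induced by Toll-like receptor or NF-κB signalling, were placed beside the members as a list of 22 genes. Of these, 17 had at least 10 counts in each library, against 13.4% of all microRNA genes. The 3 loci of Mir9 had 0 counts in each, as did 1562 of 2201 gene symbols. The listed genes were picked as known microRNAs, so a larger counted share than over all genes is no result about them. The list held 4.39% of counted reads in replicate 1 and 4.29% in replicate 2, most of it Mir21a, which many cell types express.

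Mir342, a microRNA of lymphoid and other blood cells, had 2575 counts in replicate 1, 1990 in replicate 2 and a mean of 620.4 ± 3.32 CPM, which placed it between Mir155 and Mir150. Mir155 exceeded it with a log2 ratio of 0.34 ± 0.21. Mir132, which Toll-like receptor signalling and neuronal activity induce, had 202 ± 0.396 CPM, close to Mir142. Mir511, which lies in an intron of the macrophage receptor gene Mrc1, had 211 counts in replicate 1, 151 in replicate 2 and a mean of 49.0 ± 2.92 CPM. Mir147, induced by Toll-like receptor signalling in macrophages, had 3 and 5 counts.

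The Mir181 loci, which lymphocytes use in development but many tissues express, ran from 579 ± 43.6 CPM for Mir181c to 2.16 ± 1.74 CPM for Mir181b-1. Loci with a copy number in their symbol, such as Mir181a-1, Mir125b-1 and Mir9-1, can lose reads that align to each copy. Between the libraries, 6 of the 15 listed genes with at least 10 CPM were higher in replicate 1 under TMM, beside 51.3% of all 261 genes, with a median log2 ratio of −0.05. Under total-count scaling 12 of the 15 were higher, beside 79.7% of all genes.

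The genes nearest to each member in level were found by Euclidean distance in log2(CPM + 1) over the 2 libraries. Mir150 and Mir146 were each other's nearest gene, at a distance of 0.0421. Mir155 lay nearest to Mir486, at 0.229, and Mir128-1, at 0.318. Mir223 lay nearest to Mir542, at 0.0590, and Mir329, at 0.0772, which were likewise higher in replicate 1, with 423 and 309 CPM for Mir542 and 455 and 311 CPM for Mir329. Mir142 lay nearest to Mir16-2, at 0.0342, and Mir132, at 0.0717. Mir146b shared its counts of 2 and 0 with other genes of the tail, so no nearest gene is named for it. With 2 libraries this distance reflects the level and 1 ratio, and it is a description only.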

How the data were processed

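For each library the authors deposited raw read counts of 2202 microRNA genes, in columns that ignore strand, take the gene's strand, or take the opposite strand. They used mm10 with GENCODE M21, per the file descriptions. No source used here names the aligner, counter or adapter trimming. Library sizes leave out the 4 rows without a gene. Unmapped reads made up 7.05% of replicate 1 and 6.02% of replicate 2, reads outside any microRNA gene 1.63% and 1.51%, and counted reads 20.96% and 19.2%.

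Same-strand counts were the measurement. CPM used the total same-strand count. Ratios within a library used counts + 0.5. Ratios between libraries used TMM factors of 1.07 and 0.930 from edgeR 4.0.16, with DESeq2 1.42.0 size factors as an alternative. A count of 0 was taken to allow 3 counts. The ratio script recovered known folds in simulated data that held counting error alone. That simulation used no TMM scaling and no spread between animals, so it did not try either. Members, lists and the rule for naming genes (members, the 2 nearest genes in level, listed genes and opposite-strand genes) were chosen with earlier results of these data known. Replicates 1 and 2 are the only group, so no test between conditions was made. PCR copies are not independent molecules.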

Additional observations from a re-analysis of the deposited data

How the results depend on the processing

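Across 143 alternative values of 23 results, 103 stayed close to the reported value, that is within its SD or counting interval or, for the number of genes past 2-fold, within 1.5 times. These include the values without replicate 1 or without replicate 2, which with 2 libraries cannot differ from the mean by more than the SD and so are no check. In the column that ignores strand, the levels were 1055 CPM for Mir155, 679.6 for Mir150, 667 for Mir146, 489 for Mir223 and 0 for Mir142, and the share was 0.289%. With all reads as the library size they were 158, 102, 100.3, 74.5 and 41.4 CPM, with a share of 0.0477%. Without the most abundant gene in the library size they were 911 CPM for Mir155, 587 for Mir150, 576 for Mir146 and 237 for Mir142, with a share of 0.273%.

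In the column that ignores strand Mir142 and Mir451a are at 0, so log2 ratios with them are set by the pseudocount. They were 11.37 for Mir223 over Mir142, and over Mir451a 12.49 for Mir155, 11.86 for Mir150, 11.83 for Mir146, 11.37 for Mir223 and 0 for Mir142.

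The log2 ratios of replicate 1 over replicate 2 for Mir155, Mir150, Mir146, Mir223 and Mir142, in that order, were −0.29, −0.11, −0.13, 0.54 and 0.085 under total-count scaling. Without the most abundant gene they were −0.32, −0.14, −0.16, 0.51 and 0.061. With all reads as the library size they were −0.17, 0.013, −0.0070, 0.66 and 0.21, which reversed Mir150. Genes past 2-fold numbered 13, against 29 with a minimum mean of 1 CPM and 2 with 100 CPM. The cause of these shifts beyond the change of denominator or of genes compared was not tested. No paired analysis was possible because there is only 1 group. Depth limits Mir146b, whose 2 counts give no ratio between the libraries.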
